A study of Bos taurus with 28 samples.

Results

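Apolipoproteins, the transfer protein MTTP and the cholesterol exporter ABCA1 were examined in the liver of ketotic and healthy dairy cows. The genes were picked by symbol, with earlier results of these data known: APOA1, APOA4, APOB, MTTP and ABCA1, together with APOA2, APOC3, APOE, APOH and APOM where the array held a named probe. Of these 10 genes, 9 had a named probe and APOA2 had none. ABCA1 had 2 probes and the other genes had 1 each, so the set held 10 of the array's 13824 probes. All 9 genes with a probe passed the filter on missing values and stood among the 6958 genes tested.

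The animals were 14 multiparous Holstein cows that had been judged healthy on day 4 after calving and then assigned at random, 7 to a healthy control group and 7 to a ketosis group. Cows of the ketosis group were given 50% of their earlier intake from day 5, or from day 4 by the sample labels, until clinical ketosis appeared or day 14 was reached. Ketosis here was therefore brought on by feed restriction. Which cows reached clinical signs, and the day each liver was taken, are not given in the labels used here. Total RNA of each liver was hybridised to 2 two-colour cDNA microarrays with the dyes exchanged, against a reference RNA pooled from cattle tissues. Unless arrays were scaled to a common spread, every value below is a log2 ratio of liver over reference. It is centred on the median of its array and averaged over a cow's 2 arrays, and n counts cows. A difference is the ketotic mean minus the healthy mean on that log2 scale, or on the rescaled values where arrays were scaled. Ratios of different genes rest on different levels in the reference and are not compared as levels.

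The liver packs triacylglycerol into very-low-density lipoprotein (VLDL) by adding lipid to a growing APOB chain in the endoplasmic reticulum, a step carried out by MTTP. High-density lipoprotein (HDL) forms when ABCA1 loads cell cholesterol and phospholipid onto APOA1. When a cow after calving draws on body fat, fatty acids reach the liver in excess, and ruminant liver is known for a low rate of VLDL export, so triacylglycerol tends to accumulate there. In bulk liver, fewer cells of a type and less RNA per cell cannot be told apart.

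One animal stood apart from the other 13 and touches nearly every value that follows. Healthy cow 7, tag 7161 in the labels, correlated with the other cows across all probes with values at a median r of 0.423 (0.363 to 0.462). The other 13 cows correlated with each other at 0.716 or more. The description field of this cow's arrays is not filled in, so its group comes from the title alone. Its hepatocyte markers had a median log2 ratio of 3.04, against at least 5.20 in each other cow of its group and a range of 5.25 to 6.66 in ketotic cows, and all 18 measured hepatocyte markers lay above 0 in every cow. Arrays also differed in spread between the groups. The median absolute deviation of log2 ratios per cow was 1.12 ± 0.128 in healthy and 1.40 ± 0.184 in ketotic cows (SD, n = 7 each; exact permutation test over cows, two-sided, adjusted p = 0.0227), and spots without a ratio made up 11.9% ± 2.80 and 16.5% ± 4.49 (exact permutation test, adjusted p = 0.0498 over 3 array measures). Without healthy cow 7 the unadjusted p of the missing spots was 0.0664 (exact permutation test) and that of the spread 0.0175. Member differences are therefore given in 4 ways: with all 14 cows, without healthy cow 7, with all arrays scaled to a common spread, and with both changes. Groups were compared with limma, two-sided, with Benjamini-Hochberg adjustment over all genes tested and a threshold of 0.05. The median difference over all genes was -0.182 with 14 cows, and centring the arrays on probes measured everywhere moved it to -0.053.

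With all 14 cows, 2 of the 9 genes rose in ketotic liver, APOA1 and APOA4, and none fell. Among all genes tested, 0.92% rose and 12.4% fell. The 2 that rose encode the main protein of HDL and an apolipoprotein that also rides on triacylglycerol-rich particles. APOB, MTTP, ABCA1, APOC3, APOE, APOH and APOM did not pass the threshold. The median difference over the 9 genes was 0.121.

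**Figure D1:**
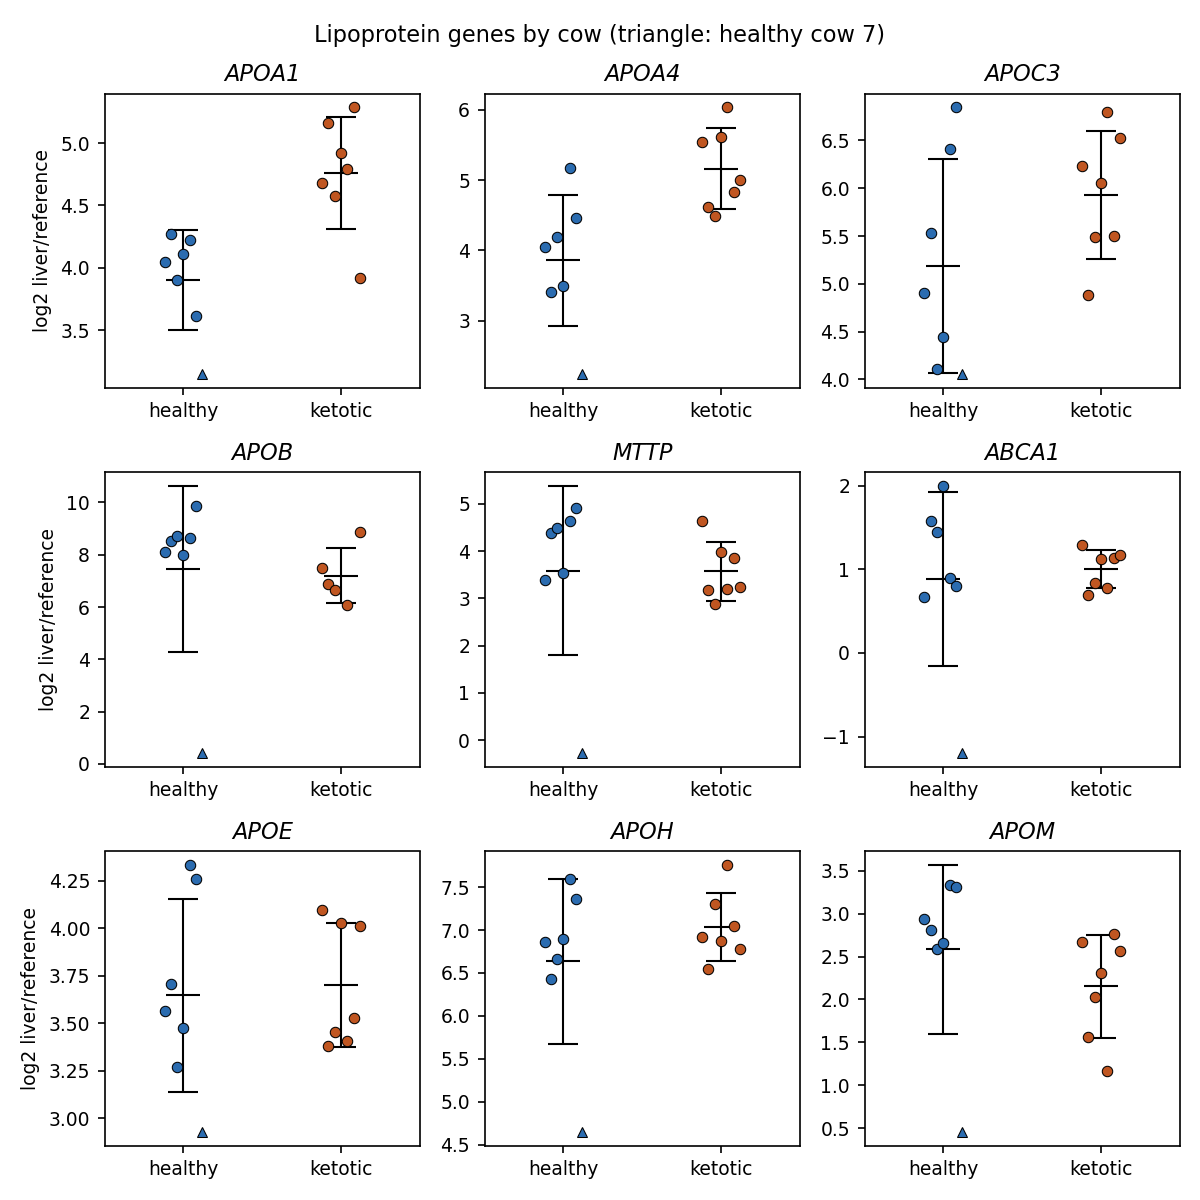
Log2 ratio of liver over reference (vertical axis, own range in each panel) for the 9 genes in 7 healthy and 7 ketotic cows; points are cows, the triangle is healthy cow 7, and bars are mean ± SD. Healthy cow 7 is the lowest healthy animal in every panel, far below the rest for APOB (0.41) and MTTP (-0.28); APOB has values in 5 ketotic cows.

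APOA1, the structural protein of HDL, ran from 3.15 to 4.27 in healthy cows with a median of 4.04, and from 3.92 to 5.29 in ketotic cows with a median of 4.79. All ketotic cows but 1 lay above every healthy cow, and ketotic cow 7 at 3.92 fell within the healthy range. The means were 3.90 ± 0.399 and 4.76 ± 0.449 (SD, n = 7 each), a 1.82-fold difference of 0.86 (SE 0.223, limma adjusted p = 0.0208), and 7 of 7 ketotic cows were above the healthy mean. The call held with each cow left out in turn, at adjusted p of 0.0105 to 0.0446, and without healthy cow 7 the difference was 0.74 (adjusted p = 0.0197). Scaling the arrays to a common spread took it to -0.027 (adjusted p = 0.972), and quantile normalisation to 0.24 (adjusted p = 0.691).

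APOA4, which is carried on chylomicrons, VLDL and HDL and takes part in lipid export from enterocytes and hepatocytes, ran from 2.24 to 5.17 in healthy cows with a median of 4.05. In ketotic cows it ran from 4.48 to 6.04 with a median of 5.00. The groups overlapped through healthy cow 5 at 5.17, while healthy cow 7 was the lowest animal. Means of 3.86 ± 0.931 and 5.16 ± 0.580 (SD, n = 7 each) gave a 2.47-fold difference of 1.30 (SE 0.378, limma adjusted p = 0.0336), with 7 of 7 ketotic cows above the healthy mean. Leaving out any of 7 cows (healthy 1, 2 or 4, ketotic 1, 4, 5 or 7) took the adjusted p past the threshold, to between 0.0502 and 0.0685, at differences of 1.16 to 1.34. Without healthy cow 7 the APOA4 difference was 1.03 (adjusted p = 0.0298), and with arrays scaled to a common spread 0.42 (adjusted p = 0.400). Quantile normalisation kept the call, at 0.81 (adjusted p = 0.0133). With the array spread as covariate, added after the data were seen, the difference was 0.26 and did not pass (adjusted p = 0.804).

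APOC3, an inhibitor of lipoprotein lipase and of remnant uptake, lies between APOA4 and APOA1 in the order of genes of the ARS-UCD2.0 annotation. Its ratio ran from 4.05 to 6.85 in healthy cows (median 4.91) and from 4.89 to 6.79 in ketotic cows (median 6.05), and the ranges overlapped almost fully. The difference of 0.74 (SE 0.443, limma adjusted p = 0.293) did not pass, with a 95% interval from -0.20 to 1.68 and 6 of 7 ketotic cows above the healthy mean. On arrays scaled to a common spread it was -0.40 (adjusted p = 0.497). Within the ketotic group APOA4 and APOC3 correlated over cows at r = 0.793 (exact permutation p = 0.0413, adjusted 0.186 over 9 computed relations; n = 7) and rho = 0.821 (exact permutation p = 0.0341, adjusted 0.154), and r was 0.702 without the 2 cows farthest from the APOA4 median. In the 6 healthy cows other than cow 7 the same r was 0.563 (exact permutation p = 0.247). None of the 9 relations passed after adjustment, among them APOA1 with APOA4 at r = -0.203 in healthy and -0.038 in ketotic cows.

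APOB, the protein around which each VLDL particle is built, was the gene most altered by healthy cow 7. Across the 7 healthy cows its ratios were 0.41 in cow 7 and 7.99 to 9.86 in the others, with a median of 8.51. The 5 ketotic cows with a value gave 7.49, 6.88, 6.66, 6.09 and 8.87. Setting cow 7 aside, 4 of these 5 lay below every healthy cow, and ketotic cow 7 at 8.87 lay among the healthy cows. With 14 cows the means were 7.46 ± 3.17 (SD, n = 7) and 7.20 ± 1.06 (SD, n = 5), a difference of -0.26 (SE 1.29, limma adjusted p = 0.920) with a 95% interval from -3.03 to 2.50. In the 6 other healthy cows the mean was 8.64 ± 0.668, and APOB fell in ketotic cows by 1.44 on the log2 scale (2.71-fold, SE 0.453, limma adjusted p = 0.0412).

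Missing spots bear on APOB more than on the other genes. Of its 28 spots in ketotic cows 10 had no ratio, 8 of 14 with liver in Cy3 and 2 of 14 with liver in Cy5, and of 28 in healthy cows 3 had none. No probe of another member lacked more than 1 of 28 spots in a group, and no APOB spot was at the ceiling. When 1 usable array sufficed, the other 2 ketotic cows entered; without healthy cow 7 the difference was then -1.21 (adjusted p = 0.0869), and the call was lost. The part of the missing spots in the APOB difference was not tested.

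MTTP, the microsomal protein that transfers triacylglycerol onto APOB, ran from -0.28 to 4.91 in healthy cows (median 4.39) and from 2.88 to 4.64 in ketotic cows (median 3.25). Healthy cow 7 again held the low end, and the next healthy value was 3.40. The group means were 3.59 ± 1.79 and 3.57 ± 0.616 (SD, n = 7 each), a difference of -0.015 (SE 0.638, limma adjusted p = 0.990) with a 95% interval from -1.37 to 1.34. Setting cow 7 aside gave -0.66 (SE 0.310, adjusted p = 0.149), and 6 of 7 ketotic cows were under the mean of the healthy. Over these 6 healthy cows APOB and MTTP correlated at r = 0.844 (exact permutation p = 0.0125, adjusted 0.112) and rho = 0.886 (exact permutation p = 0.0333, adjusted 0.154), and r was 0.961 without the 2 cows farthest from the APOB median. Too few ketotic cows had an APOB value for the same relation there.

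ABCA1, which passes cholesterol and phospholipid to lipid-poor APOA1, did not pass as a gene, at 0.885 ± 1.04 in healthy and 1.01 ± 0.232 in ketotic cows (SD, n = 7 each; difference 0.12, SE 0.367, limma adjusted p = 0.874). That mean joins 2 probes whose differences had opposite signs. Probe 1 ran from -0.95 to 1.33 in healthy cows (median 0.56) and from 0.85 to 2.10 in ketotic cows (median 1.45), a difference of 0.96 (SE 0.304, limma fit over probes, adjusted p = 0.0559). Probe 2 ran from -1.45 to 3.44 in healthy cows (median 1.31) and from -0.55 to 1.51 in ketotic cows (median 0.50), a difference of -0.72 (SE 0.557, adjusted p = 0.446). Neither probe passed with 14 cows.

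Within a cow, ABCA1 probe 1 minus probe 2 averaged -0.88 ± 1.08 in healthy and 0.81 ± 1.08 in ketotic cows (SD, n = 7 each); its zero has no meaning between 2 probes, and only its change between groups is read. The group difference of 1.69 had an exact permutation p of 0.00991 (two-sided, over 3432 ways); this test was chosen after the probes' values were seen. It was 1.92 without healthy cow 7 (exact permutation p = 0.0035) and 1.67 with arrays scaled to a common spread (exact permutation p = 0.0105). Both dye orientations gave the same sign, 1.36 with liver in Cy3 and 2.02 with liver in Cy5. Without cow 7, probe 1 rose by 0.73 (limma adjusted p = 0.0460) and probe 2 differed by -1.19 (adjusted p = 0.0575). With arrays scaled to a common spread and cow 7 kept, neither probe passed. The differences were 0.77 for probe 1 (limma adjusted p = 0.205) and -0.90 for probe 2 (adjusted p = 0.465). With both changes, probe 1 did not pass at 0.49 (adjusted p = 0.156), whereas probe 2 passed at -1.44 (adjusted p = 0.0422). Which probe passed without cow 7 therefore depended on the scaling. Whether both probes read the same ABCA1 transcripts was not tested.

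**Figure D2:**
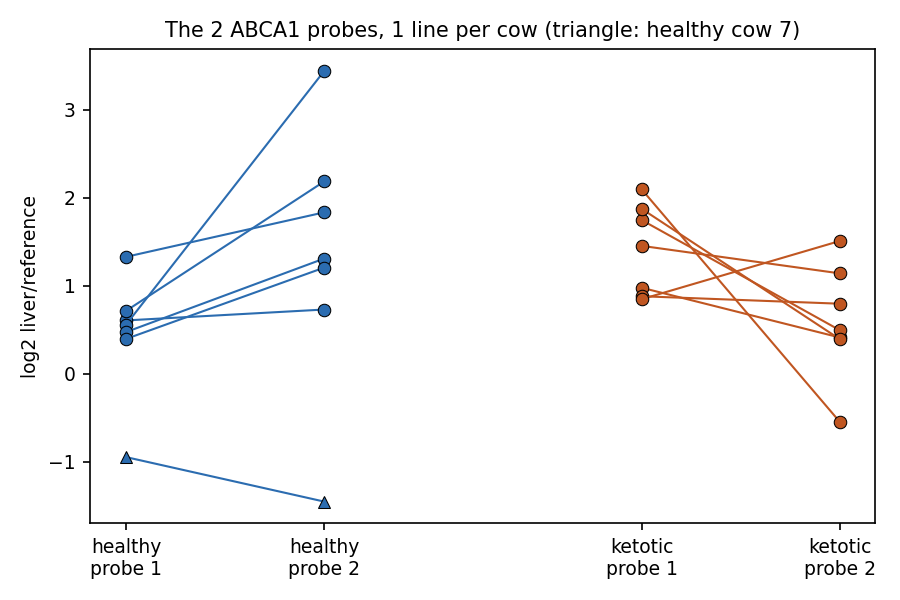
Log2 ratio of liver over reference (vertical axis) for the 2 ABCA1 probes, with a line joining the probes of each cow; healthy cows are on the left, ketotic cows on the right, and the triangle is healthy cow 7. From healthy to ketotic cows the median of probe 1 goes from 0.56 to 1.45 and that of probe 2 from 1.31 to 0.50.

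The 3 remaining apolipoproteins did not pass with 14 cows. APOE, the ligand by which remnants bind hepatic receptors, ran from 2.93 to 4.33 in healthy cows (median 3.56) and from 3.38 to 4.10 in ketotic cows (median 3.53), a difference of 0.05 (SE 0.224, limma adjusted p = 0.909). APOH, a phospholipid-binding plasma glycoprotein, ran from 4.64 to 7.60 (median 6.86) and from 6.55 to 7.76 (median 6.92), a difference of 0.40 (SE 0.360, adjusted p = 0.511). APOM, the HDL apolipoprotein that carries sphingosine-1-phosphate, ran from 0.45 to 3.33 in healthy cows (median 2.81) and from 1.16 to 2.76 in ketotic cows (median 2.30), a difference of -0.43 (SE 0.396, adjusted p = 0.518). For each of the 3 genes healthy cow 7 was the lowest healthy animal.

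Leaving out healthy cow 7 gave 2 genes that rose, APOA1 and APOA4, and 2 that fell, APOB and APOM, against 1.5% higher and 18.4% lower among the 6878 genes then tested. APOM fell by 0.79 on the log2 scale (1.73-fold, SE 0.255, limma adjusted p = 0.0419), and every ketotic cow (7 of 7) was under the mean of the 6 healthy cows, 2.94 ± 0.319 (SD). Like the APOB call, the APOM call was lost when 1 usable array sufficed, at an unchanged -0.79 (limma adjusted p = 0.0609). Unlike APOB, APOM lacked no spot, so its own values stayed the same and only the fit over all genes changed in that setting. APOA1 and APOA4 kept their calls there, at adjusted p of 0.0295 and 0.0462.

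Scaling the arrays to a common spread shrinks arrays with a wide spread and enlarges those with a narrow one. Differences on that scale are in rescaled units and are not fold changes of liver over reference. The spread was wider in ketotic cows on average, though not in each of them, and the scaling acts most on genes far from the array median. On that scale with 14 cows none of the 9 genes rose and 1 fell, APOE by 0.70 (SE 0.199, limma adjusted p = 0.0418). For APOE 7 of 7 ketotic cows were under the mean of the healthy. Of all genes 0.503% rose and 7.4% fell. With healthy cow 7 also left out, an alternative added after the data were seen, 5 of the 9 genes fell and none rose, while 2.38% of all genes rose and 18.9% fell. APOB fell by 3.02 (SE 0.473, limma adjusted p = 0.00116) and APOM by 1.23 (SE 0.253, adjusted p = 0.0038). For these 2 genes the groups did not overlap, as for 615 of the 6878 genes tested. In the same setting 8 of 18 hepatocyte markers fell and none rose, with a median difference of -0.811 against -0.756 over the 9 genes, and the part of this in the members' falls was not tested. MTTP fell by 1.40 (limma adjusted p = 0.00511), APOE by 0.76 (adjusted p = 0.0149) and APOH by 1.22 (adjusted p = 0.0212). APOA1, APOA4, APOC3 and ABCA1 had differences of -0.090, 0.18, -0.50 and -0.48 and did not pass.

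**Figure D3:**
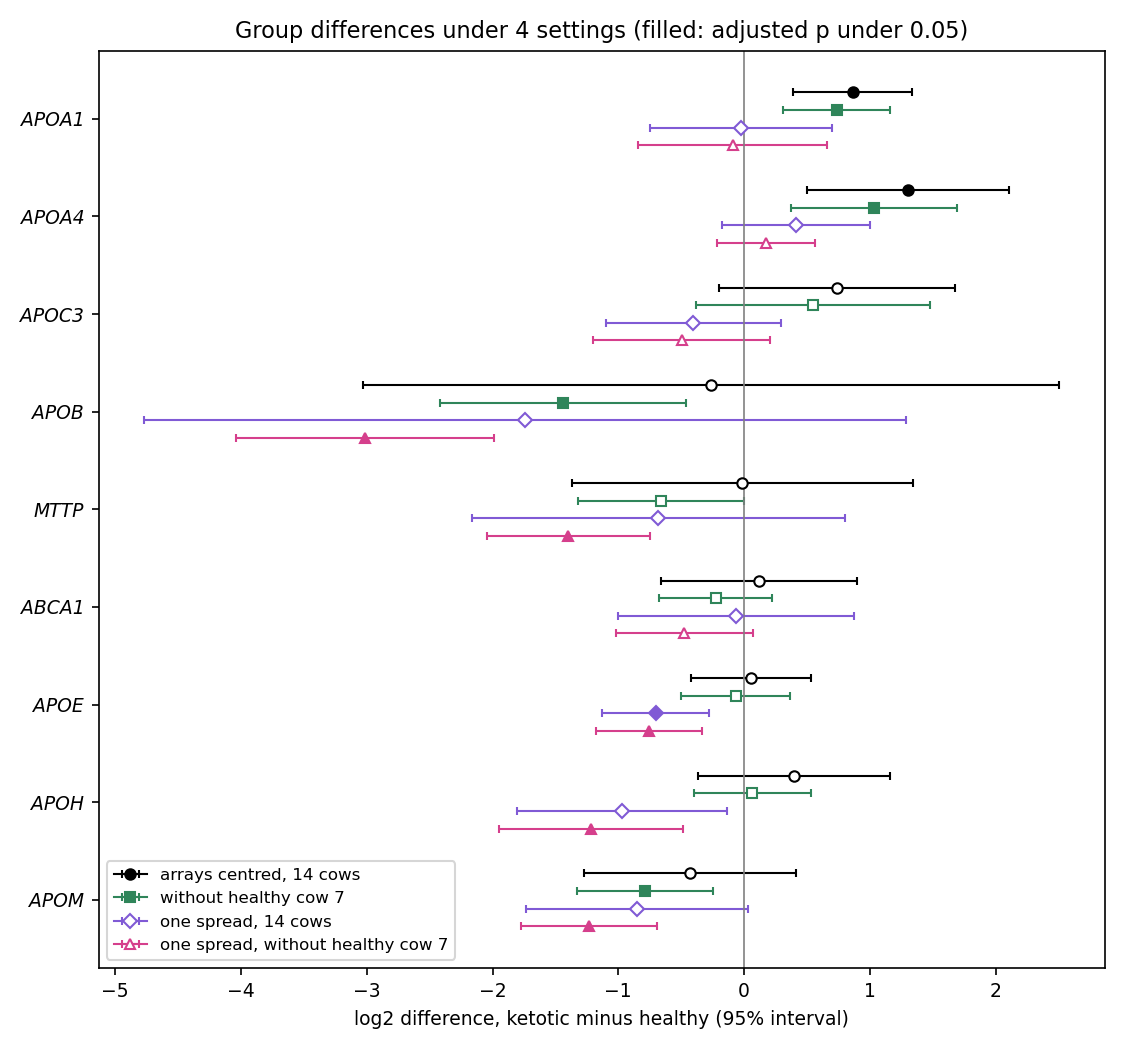
Difference in log2 ratio, ketotic minus healthy (horizontal axis), with its 95% interval for the 9 genes under 4 settings. In the settings with one spread the ratios are rescaled. Filled symbols mark a limma adjusted p under 0.05. APOA1 and APOA4 are above 0 with filled symbols when arrays are only centred, and APOB and APOM are below 0 with filled symbols in both settings that leave out healthy cow 7.

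The APOB difference was below 0 in all 4 settings, at -0.26, -1.44, -1.74 and -3.02, and MTTP did so too, at -0.015, -0.66, -0.68 and -1.40. APOM was lower in the 4 settings, at -0.43, -0.79, -0.85 and -1.23. APOA4 was higher in each, at 1.30, 1.03, 0.42 and 0.18. APOA1, APOC3, APOE, APOH and ABCA1 took either sign across the 4 settings. MTTP and APOB also took either sign on centred arrays when each cow that could be was left out in turn. MTTP then ran from -0.66 to 0.21 and APOB from -1.44 to 0.13. APOM ran from -0.79 to -0.27 and APOA4 from 1.03 to 1.52.

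Array centring cancels in the difference of 2 genes within a cow, so 7 gene pairs were compared between groups in that form; ALB, the plasma albumin made by hepatocytes, served as a gene outside the set. ALB itself was 7.15 in healthy and 8.77 in ketotic cows and rose by 1.62 (limma adjusted p = 0.0228; -0.073 on arrays of a common spread, adjusted p = 0.938). With 14 cows none of the 7 pairs differed after adjustment; APOA1 minus APOB differed by 0.99 (exact permutation p = 0.548), APOA4 minus APOB by 1.55 (exact permutation p = 0.25) and APOB minus ALB by -1.93 (exact permutation p = 0.255). Adjusted p-values of the 7 pairs ran from 0.502 to 0.907.

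Once healthy cow 7 was left out, APOB stood lower in ketotic cows relative to APOA4 and to ALB. In that setting ALB itself rose by 1.60 (limma adjusted p = 0.0233) and APOA4 by 1.03, while APOB fell by 1.44. The pair differences therefore hold changes in both genes, and APOB alone overlapped between the groups. APOA4 minus APOB ran from -5.40 to -3.47 in 6 healthy cows (median -4.52) and from -3.87 to -0.05 in 5 ketotic cows (median -2.18), a group difference of 2.45 (exact permutation p = 0.00433, adjusted 0.0152 over 7 pairs). APOB minus ALB ran from 0.44 to 2.46 in healthy cows (median 1.53) and from -4.47 to 0.26 in ketotic cows (median -1.47), without overlap. That difference of -3.09 had the smallest p that 462 ways allow (exact permutation p = 0.00216, adjusted 0.0152). APOA1 minus APOB differed by 2.04 (exact permutation p = 0.0238, adjusted 0.0556) and did not pass.

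On arrays of a common spread, again without cow 7, these group differences were 3.11 for APOA4 minus APOB (exact permutation, adjusted p = 0.0101), -3.05 for APOB minus ALB (adjusted p = 0.00758) and 2.74 for APOA1 minus APOB (adjusted p = 0.00758). MTTP minus APOB also passed there, at 1.45 (exact permutation, adjusted p = 0.0265), against 0.64 when arrays were only centred (adjusted p = 0.255). The pairs without APOB did not pass in either setting: APOA1 minus APOA4 differed by -0.30 and -0.27, APOA1 minus ALB by -0.86 and -0.18, and APOA4 minus ALB by -0.57 and 0.083. Each value with APOB rests on 5 ketotic cows and on the spots counted above.

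**Figure D4:**
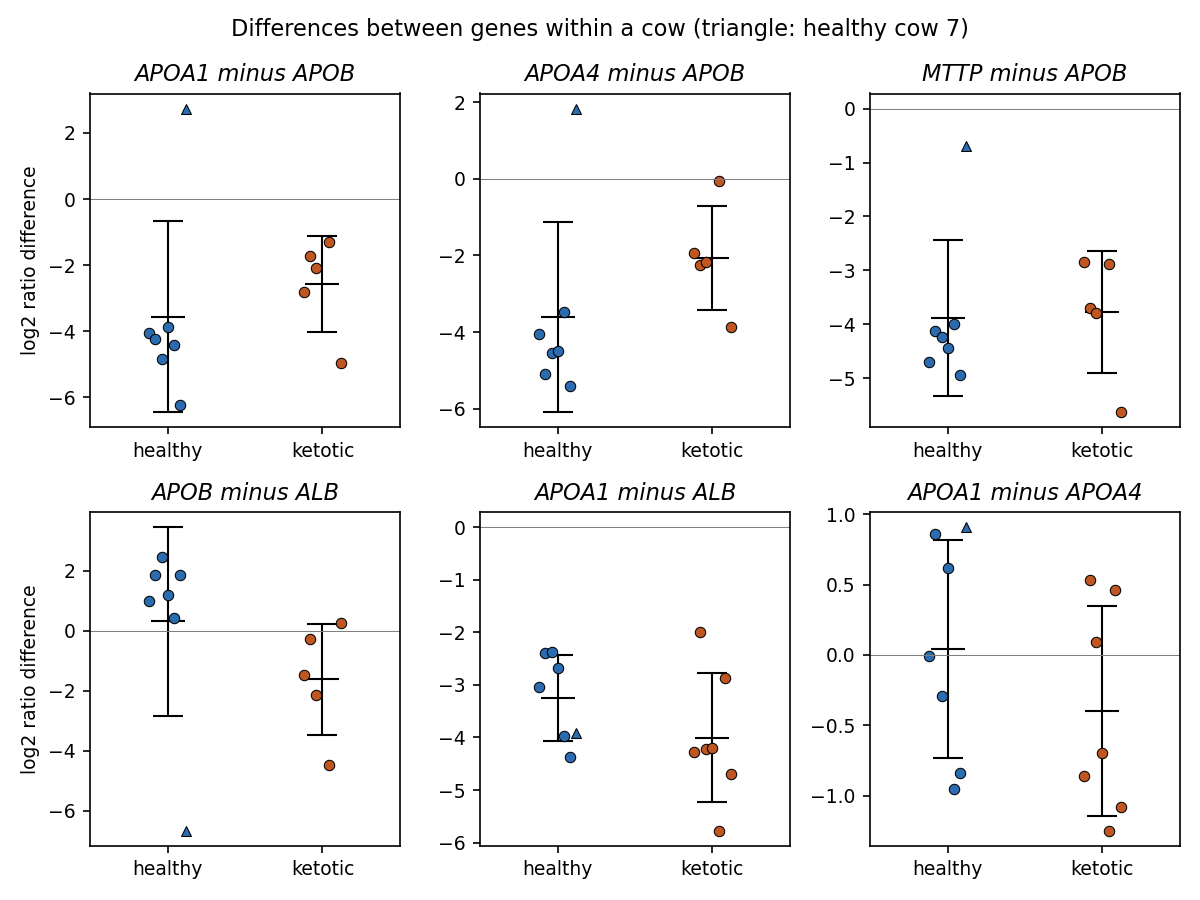
Difference of 2 genes' log2 ratios within a cow (vertical axis, own range in each panel) for 6 of the 7 pairs, by group; points are cows, the triangle is healthy cow 7, and bars are mean ± SD over all cows drawn. For APOB minus ALB the 5 ketotic cows lie from -4.47 to 0.26 and the healthy cows other than cow 7 from 0.44 to 2.46, while cow 7 is at -6.65.

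Other genes of lipoprotein metabolism were called lower more often than higher in ketotic liver. The lists were drawn up with earlier results of these data known, so their counts are a description. Of 113 genes in 5 lists (other apolipoproteins, assembly and secretion, remodelling and efflux, uptake, and regulators), with the members left out, 60 had a named probe and 56 were tested. Of these, 16 fell (28.6%) and none rose, beside 12.4% and 0.92% of all genes. The median difference was -0.321 against -0.182 over all genes. Leaving out healthy cow 7 gave 22 lower and 1 higher (41.1% in all), beside 18.4% and 1.5% of all genes. Arrays of a common spread gave 12 lower (21.4%) and none higher, beside 7.4% and 0.503%.

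In assembly and secretion 8 of 22 tested genes fell. P4HB, protein disulfide isomerase and the partner subunit of MTTP, fell by 0.60 (1.52-fold, limma adjusted p = 0.0472). CALR, an endoplasmic reticulum chaperone, fell by 0.84 (adjusted p = 0.0126), and LPCAT3, which puts polyunsaturated chains into phospholipid, by 0.63 (adjusted p = 0.0312). MIA3, which helps load bulky cargo at exit sites, fell by 0.72 (adjusted p = 0.00816), and SEC24C, a cargo adaptor of the COPII coat, by 0.62 (adjusted p = 0.0102). LRPAP1, a chaperone of lipoprotein receptors in the endoplasmic reticulum, fell by 0.71 (adjusted p = 0.0199), though on arrays of a common spread the difference of -0.50 did not pass (adjusted p = 0.142). SAR1B, the small GTPase that starts COPII coats, differed by -0.27 (adjusted p = 0.658); without healthy cow 7 it fell by 0.62 (adjusted p = 0.00626). DGAT1, which makes triacylglycerol, differed by 0.17 (adjusted p = 0.623), and DGAT2 was on the array but had too few values to be tested.

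Among genes of uptake, 5 of 6 tested fell. SDC1, the heparan sulfate proteoglycan that binds remnants, fell by 0.71 (limma adjusted p = 0.00707). SCARB2, a lysosomal relative of the HDL receptor, fell by 0.86 (adjusted p = 0.0266), and ATP5F1B, the mitochondrial ATP synthase subunit that also serves as a surface receptor for APOA1, by 0.86 (adjusted p = 0.00816). MYLIP, a ubiquitin ligase, fell by 1.36 (adjusted p = 0.0352), but differed by -0.66 on arrays of a common spread (adjusted p = 0.289). MYLIP acts against lipoprotein uptake, while SDC1 and ATP5F1B bind particles or APOA1.

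In remodelling and efflux 2 of 9 tested genes fell. LIPC, hepatic lipase, had means of 5.84 in 6 healthy and 4.20 in 6 ketotic cows. It fell by 1.64 (3.13-fold, SE 0.484, limma adjusted p = 0.0398). The LIPC difference was the same -1.64 without healthy cow 7 (adjusted p = 0.028), so that cow had entered neither fit. This fall is therefore to be read beside the APOB and MTTP differences without healthy cow 7. On arrays of a common spread the LIPC difference was -2.56 (adjusted p = 0.0125). NPC2, which binds cholesterol in lysosomes, fell by 0.89 (adjusted p = 0.0105). LCAT, which esterifies cholesterol on HDL with APOA1 as cofactor, differed by 0.59 with 7 of 7 ketotic cows above the healthy mean (adjusted p = 0.0736), and rose by 0.40 without healthy cow 7 (adjusted p = 0.0378); on arrays of a common spread the difference of 0.45 did not pass (adjusted p = 0.242). PLTP had no named probe.

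Of 7 other apolipoproteins tested, 1 fell and none rose. CLU, also called APOJ, fell by 0.91 (1.88-fold, SE 0.167, limma adjusted p = 0.00433), 7 of 7 ketotic cows being under the mean of the healthy, and by 1.11 on arrays of a common spread (adjusted p = 0.00104). None of 13 tested regulators of these genes passed; HNF4A, a nuclear receptor that drives many apolipoprotein genes, differed by 0.49 (adjusted p = 0.404).

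Markers of other cell types were measured beside these genes. Of all genes tested, 0.92% rose and 12.4% fell with 14 cows. With a common spread and without healthy cow 7, 2.38% rose and 18.9% fell. In the hepatocyte list 1 of 18 rose and none fell, and its median per cow was 5.51 ± 1.29 in healthy and 6.02 ± 0.454 in ketotic cows (SD, n = 7 each; exact permutation test over cows, p = 0.381). On arrays of a common spread no hepatocyte marker passed and the list's median difference was -0.561. With 14 cows, macrophage markers fell in 4 of 10 and rose in none, with cow medians of 0.53 to 2.91 in healthy and 0.79 to 2.37 in ketotic cows; 7 of 10 fell with a common spread and without healthy cow 7. Of stellate and fibroblast markers none of 10 passed with 14 cows, and 2 rose with both changes, with 14-cow medians of -3.32 to 0.08 and -3.84 to -2.37. Intestinal epithelium expresses APOA1, APOA4 and APOB too; of its 4 tested markers 1 rose and none fell, and the cow medians were -0.44 to 1.08 and 0.41 to 1.72. Of the adipocyte and blood lists only 2 and 1 genes were tested and none passed. The part of these cell types in the member differences was not tested.

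The genes whose ratios followed a member most closely were sought over the 13 cows other than healthy cow 7, after the group means were removed, among 5670 genes with values in all of them. As a description, APOA1 was followed by AVEN (r = 0.894), CNKSR3 (0.871) and PCBP4 (0.87), and APOA4 by INPP1 (0.887), LOC515578 (0.881) and ARHGEF19 (0.871). For APOB, over 11 cows and 5671 genes, the nearest were ACSM1 (r = 0.927), SEMA4G (0.92) and HPN (0.878). MTTP had MECR (0.852), RCOR3 (0.842) and TUBB4B (0.84), and ABCA1 had EMC2 (0.85), SELENOK (0.848) and S100A2 (0.844). The cows share their arrays for every gene, and no member was among the 3 nearest genes of another.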

How the data were processed

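For each of 27648 spots on the 28 arrays of 14 cows, the authors deposited a log2 ratio between the dyes; their normalisation and software were not given in the sources used here. Deposited log2 values at the ceiling of 16.61 and empty cells were read as no measured ratio. The sign of each array with liver labelled in Cy3, by its title, was turned; hepatocyte markers then lay above genes of other tissues on 28 of 28 arrays (median gap 6.42, lowest 2.55), so the direction is called likely. Array medians of the probes as deposited ran from -1.06 to 2.12. Each array was centred on its median, adjacent spots were averaged to 13824 probes (the design text gives 13257 elements), and both arrays of a cow were averaged. A probe needed 5 cows per group, which left 10420 probes and 6958 genes, named from the platform annotation updated through the ARS-UCD2.0 table; 8645 probes had 1 symbol. A gene's value is the mean over its centred probes. Groups were compared with limma 3.58.1 in R 4.3.3 (lmFit, eBayes, Benjamini-Hochberg). A common spread means dividing each array by its median absolute deviation and multiplying by the geometric mean over arrays. The fit was tested on simulated data first. The number of arrays limits the precision, and intensities, dim spots and hybridisation batches could not be examined.

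The members and lists were chosen with earlier results of these data known. Named genes were all members, the 12 passing genes of the 5 lipoprotein lists with the smallest p, and 10 fixed genes, 1 of which is not reported here; genes most like 5 members were the 3 with the highest r. Figures were drawn with matplotlib.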

Additional observations from a re-analysis of the deposited data

Results flagged for a closer look

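In 42 groups of values (the 9 genes, both ABCA1 probes, the 7 within-cow pairs and 3 measures of the arrays, in each group of cows) the highest and lowest cow were tested for a gap to the nearest other by Dixon's criterion, which chance meets in about 1 in 20 groups, or 2.1 of 42. It was met 10 times, each time by healthy cow 7. For single genes this cow's log2 ratio was 0.41 for APOB (nearest 7.99), -0.28 for MTTP (nearest 3.40), -1.20 for ABCA1 (nearest 0.67), 4.64 for APOH (nearest 6.43) and 0.45 for APOM (nearest 2.59), and -0.95 for ABCA1 probe 1 (nearest 0.40). Within the cow, APOA1 minus APOB was 2.74 (nearest -3.88), APOA4 minus APOB 1.83 (nearest -3.47), MTTP minus APOB -0.68 (nearest -4.00) and APOB minus ALB -6.65 (nearest 0.44). These 10 are not independent, since 4 of the pairs hold APOB. What sets this cow apart was not tested.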

How the results depend on the processing

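Over 32 settings the 9 genes gave 292 alternative values: 217 kept their direction and their side of the threshold, 23 kept their direction but lost the threshold, 7 kept it and gained the threshold, and 45 changed sign, whichever side of the threshold they were on. The fit without healthy cow 7 is counted 2 times, since it is also a cow left out in turn. Unless a value shows it, the cause was not tested.

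Scaling the arrays to a common spread gave APOA1 -0.027, ABCA1 -0.063, APOC3 -0.40, APOE -0.70 and APOH -0.97, with 35 genes higher and 515 lower overall and 0 members higher and 1 lower; APOA1 minus ALB was 0.046 and APOA4 minus ALB 0.49. With healthy cow 7 also left out (added after seeing the data) the values were APOA1 -0.090, ABCA1 -0.48, APOC3 -0.50, APOE -0.76 and APOH -1.22, 164 genes higher and 1302 lower, 0 members higher and 5 lower; APOA1 minus APOB was 2.74, APOA4 minus APOB 3.11, MTTP minus APOB 1.45, APOA4 minus ALB 0.083 and APOB minus ALB -3.05. Without healthy cow 7 alone, ABCA1 was -0.23, APOE -0.067, 103 genes were higher and 2 members lower, APOA4 minus APOB was 2.45 and APOB minus ALB -3.09. When in addition 1 usable array sufficed (added after seeing the data), ABCA1 was -0.23, APOE -0.067 and 105 genes were higher.

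On values as deposited, ABCA1 was -0.28, APOE -0.35 and APOH -0.0017, with 11 genes higher, 2466 lower and 0 members higher. Centring on probes measured everywhere gave MTTP 0.12, with 123 genes higher and 493 lower. Quantile normalisation gave APOE -0.57 and APOH -0.032, with 25 genes higher, 537 lower and 1 member higher. Liver in Cy5 alone gave MTTP 0.024, APOE -0.0025 and APOA4 minus ALB 0.15, with 1 gene higher, 11 lower and 0 members higher; liver in Cy3 alone gave MTTP minus APOB -0.018, with 41 genes and 0 members higher. Array weights gave ABCA1 -0.13 and 141 genes higher. Probe 2 alone gave ABCA1 -0.72. With 1 usable array sufficing, 1 member was higher, and with robust and trended eBayes 0. The share of spots without a ratio as covariate gave APOC3 -0.087, APOE -0.16 and APOH -0.090, with 8 genes higher, 160 lower and 0 members higher. The array spread as covariate (added after seeing the data) gave ABCA1 -0.017, APOC3 -0.40, APOE -0.32 and APOH -0.24, with 0 genes higher, 7 lower and 0 members higher.

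Leaving out each cow in turn gave ranges of -0.23 to 0.31 for ABCA1, -1.44 to 0.13 for APOB, -0.067 to 0.17 for APOE and -0.66 to 0.21 for MTTP. Genes higher ranged from 35 to 103, genes lower from 616 to 1265, members higher from 1 to 2 and members lower from 0 to 2. APOA4 minus APOB ranged from 1.25 to 2.45, MTTP minus APOB from -0.070 to 0.64 and APOB minus ALB from -3.09 to -1.57. APOB could be fitted with 9 of the 14 cows left out, since each ketotic cow with a value was needed.

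APOA1 lost the threshold on values as deposited (0.46, limma adjusted p = 0.205), with either dye alone (0.70 and 1.03) and with robust and trended eBayes (adjusted p = 0.0801). It also lost the threshold with each covariate, fitted separately. The difference was 0.98 with the share of spots without a ratio (adjusted p = 0.0723) and 0.97 with the array spread (adjusted p = 0.168). The APOA1 difference over 19 alternatives (3 of them without healthy cow 7, and none from leaving out each cow in turn) ran from -0.090 to 1.03. Of these, 10 passed the threshold, and the limma adjusted p over all 19 ran from 0.0092 to 0.972. APOA4 was above 0 in all 19, from 0.18 to 1.66, and 10 of them passed the threshold. The group difference of ABCA1 probe 1 minus probe 2 was above 0 in all 5 of its alternatives and with each cow left out, from 1.35 to 2.02. No paired analysis was possible because replicate numbers only name cows and the groups hold different animals. Depth is not known for these arrays; without intensities the signal over background of APOB and the other genes could not be examined.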
